A study of Mus musculus with 18 samples.

Results

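The genes described here are 9 cell surface markers by which mesenchymal stromal cells are usually recognised: Thy1, Eng, Cd44, Alcam, Itgb1, Itgav, Ngfr, Cd200 and Cd81. They are listed by name, under a rule that uses no measured value, and all 9 were among the 46983 gene names in the count tables. The mice were males of the inbred strain C57BL/6J, and HFD stands in the description of every library. The groups were adipose with glutamine (5 libraries), adipose without it (HFD, 4 libraries), bone marrow with glutamine (5 libraries) and bone marrow without it (HFD, 4 libraries). The genotype field reads Glutamine in the glutamine groups and Ctrl in the HFD groups. Adipose titles read mAT-MSC VAT and bone marrow titles mBMSC. The labels give neither age, nor the dose and route of glutamine, nor how or for how long the cells were isolated or grown. Each library carries a pair of numbers such as 23_28, and each pair is named under both tissues. What the numbers stand for is not given, nor is it said that the libraries of a group came from separate animals, so p-values measure the spread between these libraries, which may be technical. In the count table, 1 bone marrow glutamine library has a number pair that is in no label and is called unnumbered.

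Mesenchymal stromal cells have no single defining surface protein, so they are recognised by a panel present together and by the absence of blood and vessel proteins. The panel mixes adhesion receptors, growth factor co-receptors and organisers of the membrane. Several of its members also occur on leukocytes, endothelium or nerve, so in a mixed sample their RNA can have more than 1 source.

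Adipose libraries held 35871168 to 59529238 counts and 11361 to 14469 genes with at least 100 counts, and bone marrow libraries held 13970788 to 37984603 counts and 1755 to 7323 such genes. Levels below are CPM, a gene's counts scaled to a common library total. Reads were taken at the 3′ end of transcripts, so levels can be set side by side between genes without a length correction. The stromal label was checked against 10 stromal genes, which summed to 48291 to 62266 CPM in adipose libraries and to 72013 to 330811 CPM in bone marrow libraries. Col1a1, a collagen I chain that osteoblasts also make in quantity, averaged 7671 ± 1465 CPM (SD, n = 5) and 6144 ± 924 CPM (SD, n = 4) in the adipose glutamine and HFD groups, and 116388 ± 39157 CPM (SD, n = 5) and 141214 ± 85939 CPM (SD, n = 4) in the bone marrow groups. The growth factor receptor Pdgfra was as low as 1.75 CPM and Pdgfrb as low as 0.644 CPM in single bone marrow libraries. Neutrophil markers summed to 2965 to 54791 CPM and osteoblast markers to 52050 to 240294 CPM there. Other cells were present too. In adipose, the pan-leukocyte gene Ptprc averaged 73.3 ± 12.3 CPM with glutamine (SD, n = 5) and 166 ± 96.8 CPM with HFD (SD, n = 4), and Cdh5, the endothelial cadherin, 172 ± 59.0 and 155 ± 27.3 CPM. The endothelial markers summed to 663 to 2396 CPM in adipose libraries and to 4.09 to 722 CPM in bone marrow libraries. The 722 CPM, in bone marrow HFD 23_28, came mostly from 1 of the 10 markers.

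In adipose, 8 of the 9 markers were read well in all 9 libraries. Cd81, a tetraspanin that gathers other membrane proteins into microdomains, was the most abundant at 616 ± 94.7 CPM (SD, n = 9). Itgb1, the beta chain shared by the collagen, laminin and fibronectin integrins, followed at 594 ± 29.8 CPM (SD, n = 9). Cd81 exceeded Itgb1 in 6 of the 9 libraries, so their order was not settled. Itgav, the alpha chain of the RGD-binding integrins that activate latent TGF-beta, stood at 127 ± 34.0 CPM (SD, n = 9).

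Among the adhesion receptors, Cd44, which binds hyaluronan and osteopontin, averaged 239.5 ± 122 CPM (SD, n = 9) in adipose. Every adipose library held less Cd44 than Itgb1, and their ranges did not overlap. Thy1, a GPI-anchored immunoglobulin family protein also known as CD90, averaged 189 ± 41.3 CPM (SD, n = 9) and exceeded Itgav in 9 of 9 libraries. Cd44 exceeded Thy1 in 6 of 9 libraries. Cd200, which restrains myeloid cells through its receptor, averaged 58.8 ± 6.92 CPM (SD, n = 9). Alcam, or CD166, which binds itself and the T cell protein Cd6, averaged 30.8 ± 16.0 CPM (SD, n = 9) and was below Cd200 in 9 of 9 libraries.

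The growth factor receptors were among the lower markers in adipose. Eng, a co-receptor for BMP9 and TGF-beta that is strongest on endothelium, averaged 70.6 ± 30.1 CPM (SD, n = 9) and exceeded Cd200 in 6 of 9 libraries. Ngfr, the p75 neurotrophin receptor, averaged 0.890 ± 1.58 CPM (SD, n = 9). Its reads sat almost wholly in 2 glutamine libraries, with 204 counts in 13_15 and 156 in 25_27. It had 7, 3 and 0 counts in the other 3 glutamine libraries, against 0, 0, 25 and 3 in the HFD libraries. A count of 0 there allows up to 0.0716 CPM in the glutamine library and up to 0.0836 and 0.0555 CPM in the HFD libraries, by counting error alone.

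**Figure D1:**
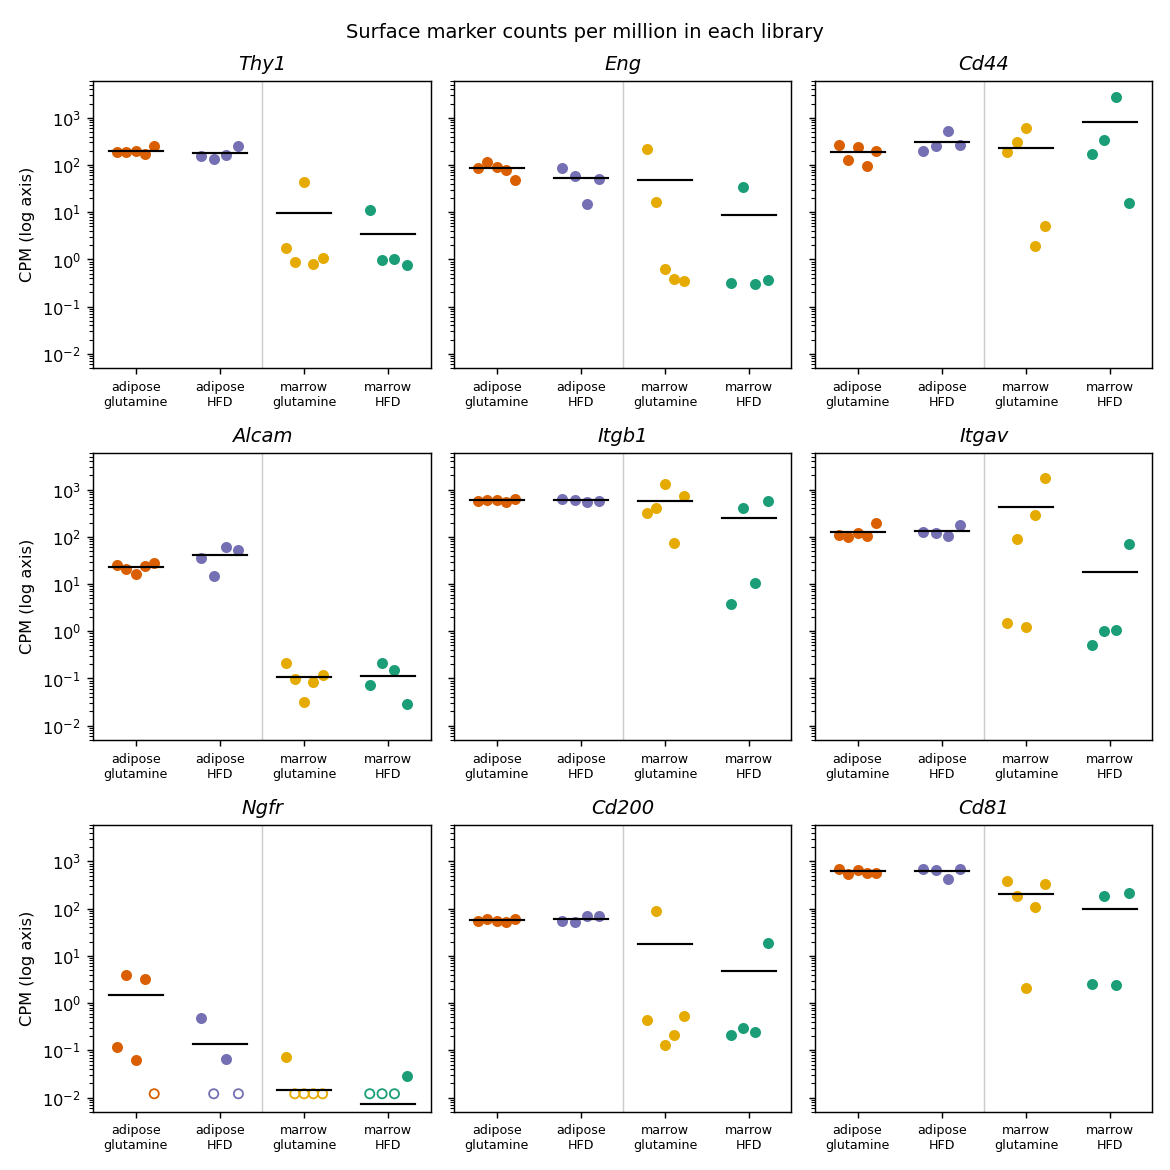
CPM of each marker in every library, on a log axis, for adipose glutamine, adipose HFD, bone marrow glutamine and bone marrow HFD libraries (points) with the group mean (line); open circles at the bottom are libraries with 0 counts and mark no value. In adipose, Itgb1 points lie between 543 and 629 CPM and Cd44 points between 95.9 and 521 CPM. In bone marrow, Cd44 points spread between 1.89 and 2696 CPM, while Alcam and Ngfr points lie low.

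The markers differed greatly in how steady they were between adipose libraries. Itgb1 varied least. Its SD was 0.0502 of its mean, the lowest of all 9405 genes that averaged at least 10 CPM in adipose, where the median was 0.360. Glutamine libraries had 629, 583, 613, 601 and 543 CPM of Itgb1, against 609, 584, 624 and 555 CPM in HFD libraries. Both groups filled the same narrow band. 1 other gene was steadier on TMM-scaled CPM, and 1 when HFD library 23_28 was left out. The next steadiest genes were Vasp, an actin regulator, at 0.0556, and Ddx6, an RNA helicase, at 0.0571.

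Cd200 was second among the markers, with a ratio of SD to mean of 0.118, below which lay 1.65% of the 9405 genes. Cd81 followed with 0.154, below which lay 5.03%. Thy1 had 0.219 and Itgav 0.268, with 16.9% and 27.6% of genes below them. Eng at 0.426, Cd44 at 0.508 and Alcam at 0.520 were on the unsteady side, with 63.3%, 76.1% and 77.7% of genes below them. The panel thus ran from the steadiest gene well into the unsteady side of the distribution. 1 library contributed much of the upper end, since without HFD 23_28 the ratio was 0.315 for Cd44, 0.301 for Eng and 0.438 for Alcam.

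**Figure D2:**
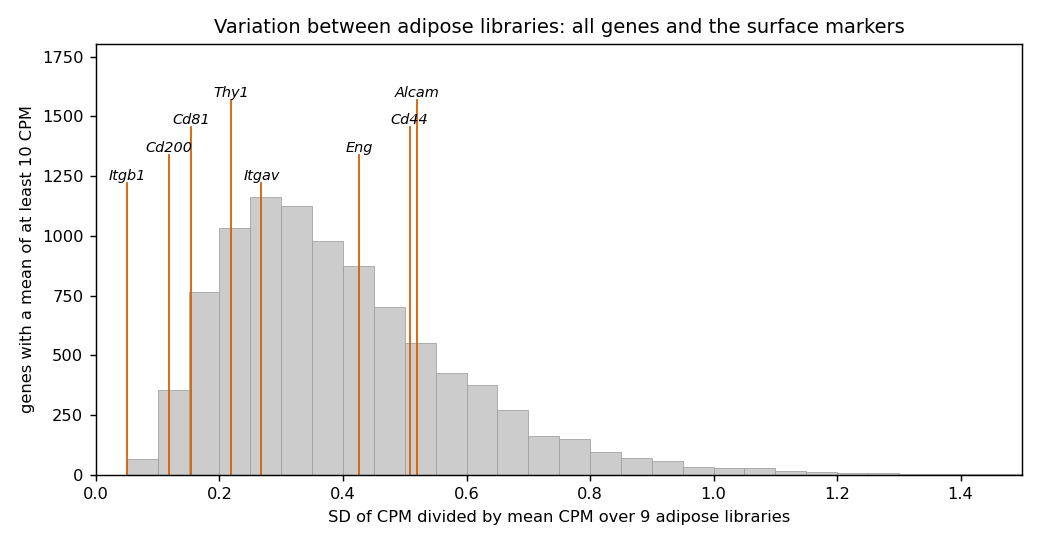
Ratio of SD to mean of CPM over the 9 adipose libraries, as a histogram of the 9405 genes averaging at least 10 CPM (bars count genes; ratios above 1.5 are outside the axis) with 8 markers as vertical lines whose heights carry no value. Itgb1 stands at the left edge at 0.0502 and Alcam furthest right of the markers at 0.520.

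For each marker with enough reads, the genes whose adipose profile lay closest were found over the 9 libraries, by the root mean square difference of centred log2 CPM among 6932 genes. The values describe likeness only. Thy1 was closest to Sod3, an extracellular superoxide dismutase, at 0.11, where the median gene lay 0.533 away. Itgb1 was closest to Vasp at 0.0713, beside 0.0715 for the movement of Itgb1 itself. Nearness to so flat a gene picks other steady genes and shows no shared profile. By ratio of SD to mean of CPM, Vasp ranked 2 and Brd2, the second closest, ranked 4. Itgav was closest to Bmpr1a, a BMP receptor, at 0.129. Cd44 was closest to Actr3, of the actin-nucleating Arp2/3 complex, at 0.246 and to Ifi30, a lysosomal thiol reductase of antigen-presenting cells, at 0.249. Alcam was closest to Hist1h1e, a linker histone, at 0.220 and to Ccl6, a chemokine of myeloid cells, at 0.234. Eng was closest to Chmp6 at 0.243, Cd200 to Dazap2 at 0.0824 and Cd81 to Tmem59 at 0.0861. The second closest genes were Pcyt1a for Thy1 (0.146), Brd2 for Itgb1 (0.0842) and Nudcd2 for Itgav (0.137). They were Trib2 for Eng (0.248), Ap1g1 for Cd200 (0.0947) and Ywhaq for Cd81 (0.101).

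In bone marrow the markers were read unevenly from library to library. Itgb1 reached 100 counts in 9 of 9 libraries, Cd44 in 7, Cd81 in 6, Itgav in 4, Eng in 3, Thy1 in 2, Cd200 in 2, and Alcam and Ngfr in none. Itgav and Cd81 had a wide gap between low and high libraries. 5 bone marrow libraries held at most 38 Itgav counts and the other 4 at least 2452. For Cd81, 3 libraries held at most 72 counts and the other 6 at least 2554. Thy1, Eng and Cd200 were split too. Their low libraries (7, 6 and 7) held at most 37, 19 and 11 counts, and the others at least 318, 504 and 638. The widest gap on a log scale ran from 87 to 551 counts for Cd44, which spanned 44 to 54288. For Itgb1 it ran from 212 to 1697, within 107 to 41200. Alcam and Ngfr were low throughout. Some libraries held the same combination at 100 counts, as glutamine 4_6 and the unnumbered library did with Itgb1, Itgav and Cd81. Fewer cells of a type, less RNA per cell and incomplete reading of a library cannot be told apart in bulk samples such as these. Bone marrow libraries had only 1755 to 7323 genes with at least 100 counts, against 11361 to 14469 in adipose libraries.

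Single markers made up most of the panel in several bone marrow libraries. In HFD 23_28, Cd44 took 99.4% of the summed CPM of the 9 markers, and only 2 of the 9 reached 100 counts. That library also had the highest neutrophil (54791 CPM), leukocyte (1586 CPM), macrophage (1744 CPM) and endothelial (722 CPM) sums of the bone marrow libraries. Its stromal sum was the lowest (72013 CPM). The endothelial sum came mostly from 1 gene, since only 1 of 10 endothelial markers reached 100 counts in any bone marrow HFD library. The endothelial markers Pecam1 and Cdh5 averaged 0.863 ± 0.146 and 0.6625 ± 0.325 CPM in that group (SD, n = 4). Cd44 is also a leukocyte gene, and the part of leukocytes, neutrophils and macrophages in its level was not tested. In HFD 14_17 Cd44 took 90.0% of a sum of only 188 CPM. In the unnumbered glutamine library Itgav took 62.2% of a sum of 2839 CPM. The fullest panel was in glutamine 18_20, the bone marrow library with the most genes over 100 counts (7323), where 6 of 9 markers reached that level. In adipose the sum stayed between 1653 and 2140 CPM and the top marker's share between 29.0% and 35.5%.

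This pattern was not particular to the markers. Of 8790 genes with at least 100 counts in all 9 adipose libraries, 2.92% did so in every bone marrow library as well, as Itgb1 did, and 14.2% in none of them, as Alcam did. The remaining markers fell between, like most genes. The order of levels in bone marrow was Cd44, Itgb1, Itgav, Cd81, Eng, Cd200, Thy1, Alcam and Ngfr by mean. Only Thy1 and Alcam had ranges that did not overlap among neighbours. Cd44, first by mean at 483 ± 854 CPM (SD, n = 9), exceeded Itgb1 in 2 of 9 libraries.

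The comparison of adipose with bone marrow asked how the panel differs between the 2 sources. Tissue, isolation and count table went together and cannot be told apart. Alcam was higher in adipose, with no overlap. Glutamine adipose libraries had 27.3, 25.0, 21.3, 16.5 and 24.0 CPM and HFD adipose libraries 15.0, 51.8, 35.0 and 61.8 CPM. Bone marrow libraries had 0.0861, 0.215, 0.118, 0.0962 and 0.0325 CPM with glutamine and 0.211, 0.0288, 0.0714 and 0.149 CPM with HFD. In reads, that is 793 to 2807 counts in each adipose library and 1 to 8 in each bone marrow library.

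Over all libraries Alcam had 12929 counts in adipose and 25 in bone marrow, a 282-fold difference in pooled CPM (95% exact binomial interval 191 to 435, counting error only). The bone marrow side of this ratio rests on 1 to 8 counts per library. The origin of these few reads was not tested. In the joint fit of all 18 libraries with edgeR's quasi-likelihood test, the log2 difference of Alcam, adipose over bone marrow, was 6.26 ± 0.786 (SE; adjusted p = 3.89e-06, Benjamini-Hochberg), and 1.78% of tested genes had a smaller p. A difference of about this size was not particular to Alcam. In the same fit the median difference was 6.02 over 6 mesothelial and 5.74 over 10 endothelial markers. That fit scales the libraries with trimmed mean (TMM) factors, which ran from 1.54 to 2.21 in adipose and from 0.322 to 0.941 in bone marrow. Alcam stayed higher in adipose and past the threshold under every alternative run, from 2.54 with relative log expression (RLE) factors to 6.73 without bone marrow HFD 23_28 and the unnumbered library.

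Of the 8 markers tested between tissues, 3 passed an adjusted p of 0.05 in edgeR, where 51.7% of all 15203 genes did. 2 were higher in adipose, where 40.5% of all genes were called higher. The split turned with the scaling of the libraries. Over all genes 6150 were called higher and 1708 lower in adipose with TMM, 2465 and 6524 with RLE, and 3222 and 5144 with upper-quartile factors. Of the 8 markers, 2 were called higher and 1 lower with TMM, 1 and 5 with RLE, and 1 and 3 with upper-quartile factors. Under TMM, Thy1 differed by 3.06 ± 1.03 (log2, SE; edgeR adjusted p = 0.0175), and Cd44 by -2.79 ± 0.929 (log2, SE; edgeR adjusted p = 0.0167). CPM ranges lay apart, higher in adipose, for Thy1, Alcam and Cd81, or 3 of 8, beside 16.0% of all tested genes.

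The Thy1 and Cd44 calls were less settled than that of Alcam. Thy1 had 134 to 255 CPM in adipose libraries and 0.748 to 43.9 CPM in bone marrow libraries, where 7 of 9 lay at or under 1.72 CPM. Its fitted difference turned negative under RLE (-0.97) and upper-quartile (-0.59) scaling. Cd44 had 95.9 to 521 CPM in adipose libraries and 1.89 to 2696 CPM in bone marrow libraries, so the ranges overlapped. Without bone marrow HFD 23_28, the library with the highest neutrophil and leukocyte sums, its difference was -1.27 (edgeR adjusted p = 0.208).

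The choice of scaling moved every gene, since the median log2 difference over all genes, adipose over bone marrow, was 1.43 under TMM, -1.94 under RLE and -0.89 under upper-quartile scaling. Relative to that median, Alcam stood at 4.83, 4.47 and 3.82 under the 3 scalings. Cd44 stood at -4.22, -4.69 and -5.45 relative to the median, and Itgav at -2.93, -3.28 and -2.94. Itgb1 stood at -2.59, -2.91 and -2.53, Eng at -1.33, -1.66 and -1.67, and Cd81 at -1.12, -1.41 and -1.19. Thy1 stood above the median, at 1.64, 0.97 and 0.30. Cd200 changed side, at -0.22, 1.12 and 1.81. Under these 3 scalings, both integrin chains, Eng, Cd44 and Cd81 thus stood below the median of all genes, and Alcam and Thy1 above it. The place of Eng was not settled. It stood above the median with limma's voom (0.46), without bone marrow glutamine 10_12 (0.46) and without bone marrow HFD 1_3 (0.11).

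**Figure D3:**
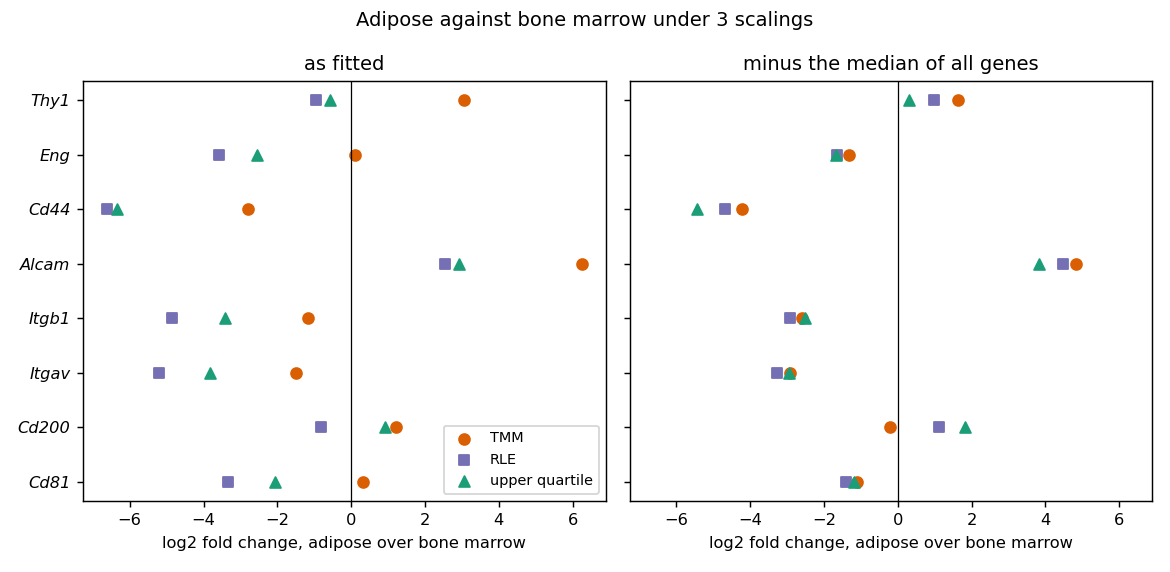
Log2 fold change of 8 markers, adipose over bone marrow, from the joint edgeR fit under 3 scalings (symbols), as fitted on the left and after subtracting the median of all genes on the right. Alcam lies right of 0 in both panels under every scaling, and Cd44 left of 0.

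Alcam and Cd44 were called in opposite directions between the tissues under all 3 scalings, and their promoters are shown for that reason. Each runs 5′ to 3′ on the gene's strand, from 250 bases before to 50 bases after the RefSeq start (GRCm38.p6), and capitals mark GGGCGG, the core of the Sp1 box, and CCAAT, on either strand. The Alcam window is chr16:52453032-52453331 and the Cd44 window chr2:102901616-102901915, both on the minus strand.
Alcam: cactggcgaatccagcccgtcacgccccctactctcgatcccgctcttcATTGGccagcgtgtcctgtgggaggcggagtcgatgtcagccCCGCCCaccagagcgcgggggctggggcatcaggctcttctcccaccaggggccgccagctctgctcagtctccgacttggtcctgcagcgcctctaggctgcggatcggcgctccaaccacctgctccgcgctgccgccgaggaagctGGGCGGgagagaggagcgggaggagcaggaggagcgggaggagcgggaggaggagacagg
Cd44: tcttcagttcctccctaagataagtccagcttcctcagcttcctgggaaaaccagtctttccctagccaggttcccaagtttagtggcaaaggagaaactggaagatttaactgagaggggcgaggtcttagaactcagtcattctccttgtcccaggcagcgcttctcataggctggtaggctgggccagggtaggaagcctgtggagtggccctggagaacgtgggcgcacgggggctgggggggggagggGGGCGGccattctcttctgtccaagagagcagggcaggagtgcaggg
The Alcam window held 2 matches to GGGCGG, 1 to CCAAT and 25 CG pairs, and its GC content was 69.7%. The Cd44 window held 1 match to GGGCGG and 6 CG pairs, with a GC content of 58.0%. TATAAA was in neither. Of 32851 promoter windows of that length, 35.7% held GGGCGG, 37.4% CCAAT and 13.6% TATAAA, and the median number of CG pairs was 7. A match is a description of letters and not a bound site.

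Binding partners of the markers were followed as lists of known partners. Of 11 alpha chains that pair with Itgb1, 5 were higher and 2 lower in adipose by edgeR at an adjusted p of 0.05 with TMM, 4 and 5 with RLE, and 4 and 4 with upper-quartile factors. Of all genes tested, 40.5% were higher and 11.2% lower with TMM. With RLE these shares were 16.2% and 42.9%, and with upper-quartile factors 21.2% and 33.8%. The list counts in this and the following paragraphs stand beside these shares, and several lie near them. Differences below are those with TMM. Itga3, a laminin-binding chain, differed by 6.18 ± 0.921 (log2, SE), Itga5, the fibronectin receptor chain, by 5.35 ± 0.849, and Itga7, a laminin receptor chain of muscle, by 6.04 ± 1.06. Itga10, a collagen receptor chain of cartilage, differed by -9.10 ± 1.64, with a mean of 1.40 ± 2.86 CPM (SD, n = 9) in adipose and 142 ± 212 CPM (SD, n = 9) in bone marrow. Of 3 tested beta partners of Itgav other than Itgb1, 2 were higher in adipose with TMM, of which Itgb8 was not called with RLE or upper-quartile factors: Itgb3, at 29.8 ± 7.59 CPM in adipose and 0.124 ± 0.0914 CPM in bone marrow (SD, n = 9 each), and Itgb8, at 4.80 ± 4.30 CPM and 0.0246 ± 0.0307 CPM. None of Itgb3, Itgb5, Itgb6 and Itgb8 reached 100 counts in the unnumbered bone marrow library, where Itgav stood at 1767 CPM and Itgb1, which also pairs with it, had 12264 counts.

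Of 24 ligands, receptors and cytoplasmic partners of the markers, 6 were higher and 3 lower in adipose with TMM, 1 and 11 with RLE, and 4 and 10 with upper-quartile factors. Spp1, which encodes osteopontin, a ligand of Cd44 and of Itgav integrins made by bone cells, had 6.46 ± 5.17 CPM in adipose and 584 ± 363 CPM in bone marrow (SD, n = 9 each), a difference of -8.47 ± 0.962 (log2, SE). Has2, which makes hyaluronan, the other main Cd44 ligand, had 23.8 ± 9.07 CPM in adipose and 0.0986 ± 0.0601 CPM in bone marrow, a difference of 6.13 ± 0.751. Cd6, the ligand of Alcam on T cells, differed by 6.21 ± 1.46 (log2, SE), a call lost with RLE (edgeR adjusted p = 0.0947). In the Cd44 pair the direction of the ligands was thus divided, osteopontin high in bone marrow and the hyaluronan synthase high in adipose.

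Of 18 other stromal surface markers, 5 were higher and 4 lower in adipose by the same test with TMM, 3 and 11 with RLE, and 3 and 9 with upper-quartile factors. Cd34, a sialomucin of adipose stromal cells and endothelium, had 974 ± 220 CPM in adipose and 4.23 ± 1.02 CPM in bone marrow (SD, n = 9 each). Dpp4, or CD26, a peptidase of adipose interstitial progenitors, had 132 ± 61.4 CPM in adipose and 0.530 ± 0.243 CPM in bone marrow. Lepr, the leptin receptor that marks marrow stroma, went the other way, with 1.67 ± 1.27 CPM in adipose and 299 ± 396 CPM in bone marrow. Their log2 differences were 5.96 ± 0.669, 6.06 ± 0.898 and -9.44 ± 1.31 (SE). Those of Cd34 and Dpp4 lay near those of Alcam (6.26), Has2 (6.13) and Itgb3 (6.04). Whether the low bone marrow values of these genes reflect expression there was not tested. The Cd34 call was lost with RLE and upper-quartile factors (edgeR adjusted p = 0.0549 in both). Itga5 was the fourth by p.

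Cell type markers also differed between the tissues, and their part in the differences above was not tested. Of all genes tested with TMM, 40.5% were higher and 11.2% lower in adipose. By edgeR with TMM, all 6 mesothelial markers, 9 of 10 endothelial, 7 of 8 tested T and NK cell, 5 of 5 tested B cell, 5 of 8 mural and 4 of 6 adipocyte markers were higher in adipose, with 1 adipocyte marker lower. All 8 neutrophil, all 7 tested osteoblast, 4 of 7 erythroid and 2 of 4 tested Schwann cell markers were lower in adipose. Macrophage markers were divided, 5 higher and 1 lower of 10, as were stromal markers, 4 higher and 3 lower of 10, and 2 of 9 leukocyte markers were lower. With RLE or upper-quartile factors no stromal marker was called higher, and 9 or 7 of 10 were lower. The lists high in adipose lost calls too. With RLE, 5 of 6 mesothelial, 5 of 10 endothelial, 4 of 8 T and NK cell and 2 of 5 B cell markers were higher. So were 4 of 8 mural markers, with 2 lower, and 2 of 6 adipocyte markers, with 1 lower. With upper-quartile factors the higher counts were 4, 5, 5, 3, 4 and 2 in the same order. All 8 neutrophil and all 7 tested osteoblast markers were lower in adipose under each of the 3 scalings. Sox10 and Cdh19, which define Schwann cells, had 0 counts in every bone marrow library.

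Glutamine was then set against HFD within adipose. No marker passed the test. Of 8 markers tested with edgeR, 0 reached an adjusted p of 0.05, as did 0% of the 15114 genes, while 4.13% had an unadjusted p under 0.05 and DESeq2 called 31 genes but no marker. CPM ranges of the 2 groups overlapped for all 8, where 1.66% of genes had ranges apart. The median difference was -0.07 over the 8 markers and -0.02 over all genes (log2, glutamine over HFD).

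Cd44 and Alcam had the smallest p-values of the panel in adipose. Cd44 had 196, 264, 125, 241 and 95.9 CPM in glutamine libraries, against 258, 260.2, 195 and 521 CPM in HFD libraries. The groups overlapped, with HFD 23_28 far above the rest. The difference was -0.77 ± 0.329 (log2, SE; edgeR adjusted p = 1.00), and 2.80% of all genes had a smaller p. Alcam had the values given above, averaging 22.8 ± 4.13 CPM with glutamine (SD, n = 5) and 40.9 ± 20.5 CPM with HFD (SD, n = 4), a difference of -0.87 ± 0.398 (log2, SE; edgeR adjusted p = 1.00), and 3.91% of all genes had a smaller p. Of the 4 HFD libraries 3 were above every glutamine library and 1_3 was below every one.

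Eng leaned the other way. It had 48.9, 86.5, 118, 91.1 and 79.0 CPM in glutamine libraries, against 59.7, 51.5, 84.7 and 15.2 CPM in HFD libraries, with overlap and a difference of 0.67 ± 0.392 (log2, SE; edgeR adjusted p = 1.00). Eng ends tail to tail with Fpgs on the opposite strand (GRCm38, chromosome 2, Eng 32646595 to 32682669 and Fpgs 32682609 to 32704145). They share 61 bases at both genes' 3′ ends, where this method reads, and the strand setting of the counting is not given in the sources used here. A part of Eng reads could therefore belong to Fpgs or have been set aside.

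HFD 23_28 weighed on all 3 of these differences. It was the adipose library with the most Cd44 (521 CPM) and Alcam (61.8 CPM) and the least Eng (15.2 CPM) and Cd81 (422 CPM). It also had the highest summed leukocyte (1298 CPM), macrophage (1688 CPM) and B cell (3844 CPM) markers, and the lowest endothelial (663 CPM) and mural (312 CPM) sums. Without it the differences were -0.40 for Cd44, -0.60 for Alcam and 0.36 for Eng (log2). Over the groups, the 9 leukocyte markers summed to 251 to 537 CPM in glutamine libraries and 463 to 1298 CPM in HFD libraries, and the 10 macrophage markers to 294 to 772 CPM and 577 to 1688 CPM. The 10 endothelial markers summed to 993 to 2396 CPM with glutamine and 663 to 1784 CPM with HFD. Their part in the Cd44, Alcam and Eng values was not tested.

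**Figure D4:**
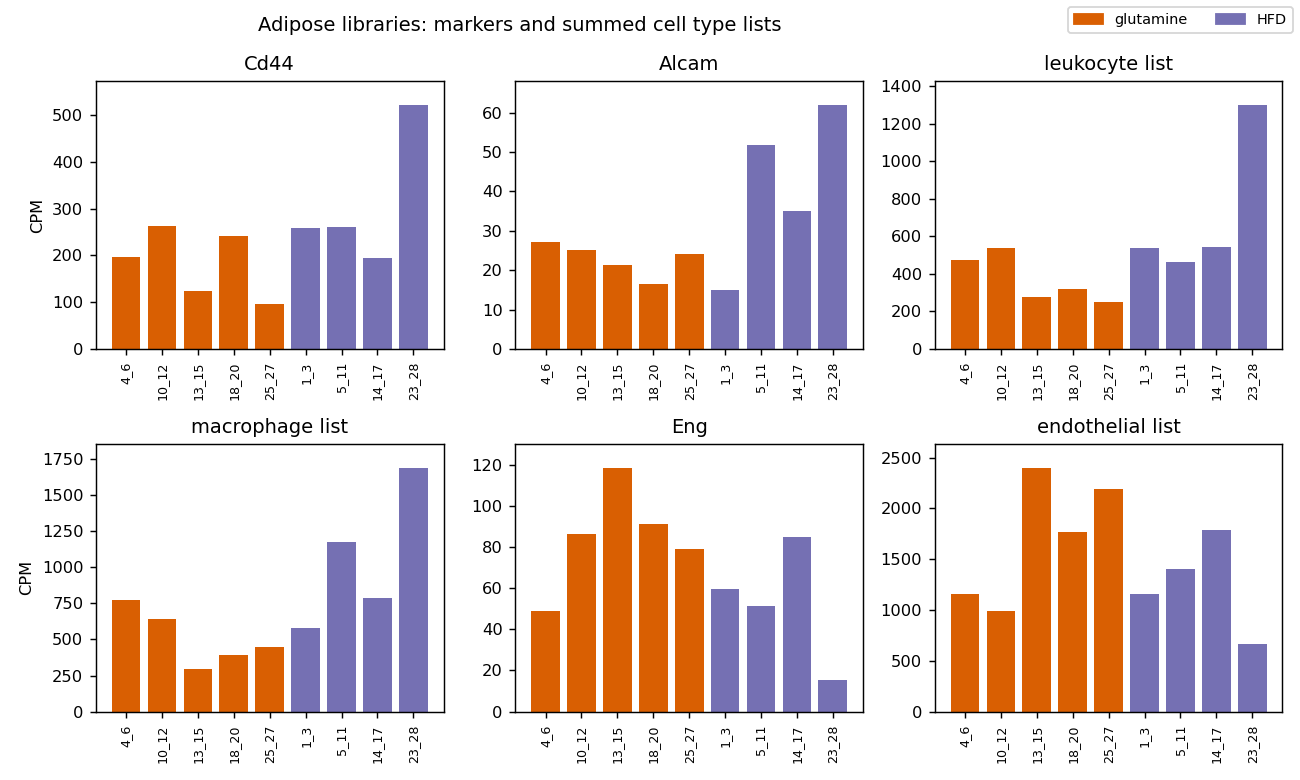
CPM of Cd44, Alcam and Eng and the summed CPM of the leukocyte, macrophage and endothelial markers in each adipose library (bars; glutamine left, HFD right, linear axes from 0). HFD 23_28 has the highest Cd44, Alcam, leukocyte and macrophage bars and the lowest Eng and endothelial bars.

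The other 5 tested markers lay near 0 in adipose. Itgb1 differed by -0.02 ± 0.140 (log2, SE), with a 95% interval from -0.29 to 0.26, the narrowest of the panel. Cd81 differed by -0.04 ± 0.177, Itgav by -0.10 ± 0.252, Cd200 by -0.14 ± 0.221 and Thy1 by 0.14 ± 0.224. Their intervals reached at most 0.59 on either side, which is the size of change the data leave possible for them. Ngfr was below the count filter and was not tested.

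**Figure D5:**
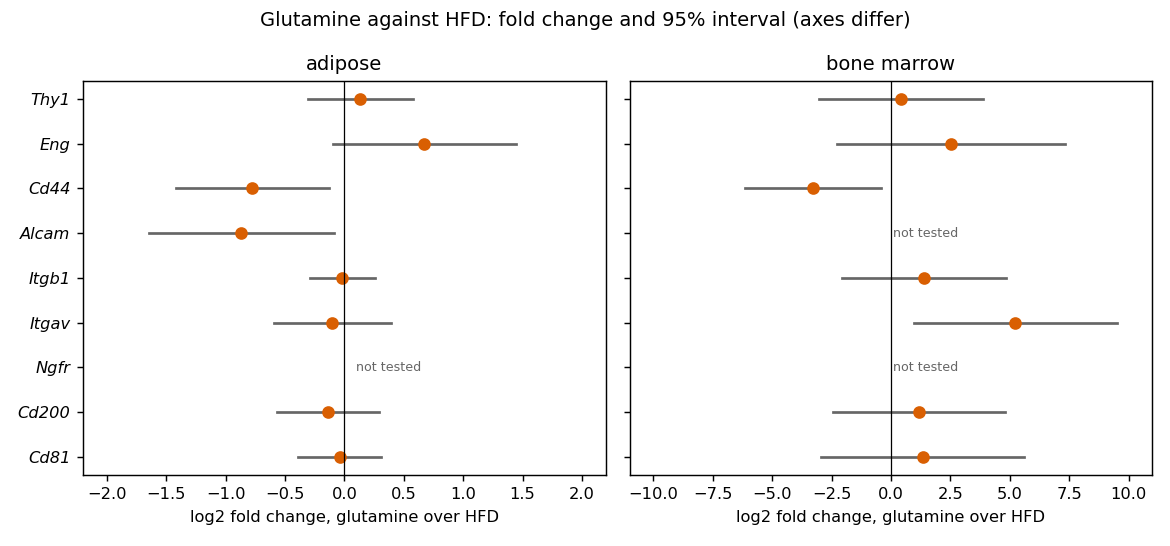
Log2 fold change of each marker, glutamine over HFD, with its 95% interval (line), from edgeR fits of the adipose libraries (left) and the bone marrow libraries (right, on a wider axis). Adipose intervals are narrow, Itgb1 from -0.29 to 0.26, and bone marrow intervals wide, Itgav from 0.94 to 9.5.

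In bone marrow, too, no marker passed. Of 7 tested with edgeR, 0 were called, where 0.132% of 6041 genes were. No marker had CPM ranges apart between the groups, where 3.77% of genes did. Alcam and Ngfr were below the count filter. The 95% intervals of the 7 reached at least 2.87 log2 units to either side of the estimate.

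The 2 smallest p-values rested on single libraries. Itgav had 283, 1.5, 1767, 88.8 and 1.24 CPM in bone marrow glutamine libraries, against 1.00, 70.5, 0.500 and 1.04 CPM in HFD libraries. Readable levels were in 3 of 5 glutamine and 1 of 4 HFD libraries. The difference was 5.22 ± 2.18 (log2, SE; edgeR adjusted p = 0.197), and without the unnumbered library it was 2.03 (edgeR adjusted p = 0.804). Itgav shares its interval with the antisense transcript Gm13684, within the gene body.

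Cd44 had 1.89, 189.7, 5.15, 313 and 622 CPM in bone marrow glutamine libraries, against 333, 15.9, 169.6 and 2696 CPM in HFD libraries. The difference was -3.28 ± 1.47 (log2, SE; edgeR adjusted p = 0.202), and -0.14 without HFD 23_28. The lowest glutamine libraries held 44 and 87 counts, and every HFD library held at least 551. In these libraries the 9 leukocyte markers summed to 6.30 to 838 CPM with glutamine and 3.29 to 1586 CPM with HFD, and the 8 neutrophil markers to 2965 to 25543 CPM and 4187 to 54791 CPM, the top value of both being HFD 23_28. The fitted glutamine difference was negative for 6 of 6 tested leukocyte and 7 of 8 neutrophil markers, none of them called. Their part in the Cd44 value was not tested. Eng had a difference of 2.52 ± 2.45, Itgb1 of 1.38 ± 1.75, Cd81 of 1.32 ± 2.19, Cd200 of 1.18 ± 1.84 and Thy1 of 0.42 ± 1.77 (log2, SE), each smaller than 2 SE.

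Whether glutamine acted differently in adipose and bone marrow was tested as an interaction. Of 8 markers, 0 passed in edgeR, where 11.9% of 15203 genes did, a share that was 0 under RLE or upper-quartile scaling. Itgav had the smallest p, with an adipose effect lower than the bone marrow effect by -5.03 ± 2.29 (log2, SE; edgeR adjusted p = 0.151). Without bone marrow HFD 5_11 it passed, at -9.37, as the sole marker to do so in any alternative. Of the partner genes, Itgb1bp1, which binds the Itgb1 tail, was called at -8.08 ± 2.40 (log2, SE; edgeR adjusted p = 0.0434). In bone marrow 2 of 9 libraries held at least 100 counts of it, against 9 of 9 in adipose. No member of the 17 other lists was called for glutamine within either tissue.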

How the data were processed

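RNA was sequenced from 9 adipose and 9 bone marrow samples. A poly(A)-primed 3′-end kit was used on 30 ng of RNA and only the first read was kept, per the labels' protocols. The authors deposited raw counts per gene, whole numbers with no sign of normalization. Per the submitters' processing notes, HTSeq 0.11.3, STAR 2.7.10b and FastQC 0.12.1 were used with build GRCm38. For the annotation, strand setting and duplicate handling nothing is stated (not given in the sources used here). No molecular identifiers are named, so intervals from reads cover counting error only.

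Of 46983 gene names, 40115 matched GENCODE M21 (GRCm38) directly and 2228 after restoring altered characters. Positions are 1-based. Promoters came from RefSeq (GRCm38.p6), where 8 of the 9 markers matched.

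The marker list, though its rule uses no measured value, was drawn up with earlier results of these data known, as were the 17 other gene lists (155 genes) and the tests. Each tissue was fitted alone with edgeR 4.0.16 in R 4.3.3 (filterByExpr, TMM factors, quasi-likelihood F test, two-sided, Benjamini-Hochberg over all genes tested, call at an adjusted p under 0.05), and the tissue difference and interaction in 1 fit of 18 libraries. The SE is the absolute log2 change over the square root of F, and 95% intervals are normal intervals from it. Alternatives were other scaling factors, count filters, DESeq2 1.42.0, voom of limma 3.58.1 with quality weights, robust fitting, single arms, a replicate block and leaving out libraries. Outside the markers, genes are named only where called, up to 4 per list by p, or as the 2 leading genes of a cell type check. Nearest genes needed an average log2 CPM of at least 4. Levels and intervals used Python 3.11.15 with pandas 2.3.3, numpy 2.4.6 and scipy 1.17.1.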

Additional observations from a re-analysis of the deposited data

Results flagged for a closer look

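Of 36 combinations of marker and group, 14 had a library whose gap to its nearest neighbour took a large part of the group's range (Dixon's criterion). The usual rate of about 1 in 20 holds for normally distributed values. For skewed CPM in small groups it does not, so the 14 flags are no measure of an excess. For Ngfr in bone marrow, a single count among zeros fills the whole range by construction. In bone marrow glutamine libraries these were Thy1 in 25_27 (43.9 CPM, the others at most 1.72), Eng in 10_12 (220.2 CPM, the others at most 16.2), Itgav in the unnumbered library (1767 CPM, the others at most 283), Cd200 in 18_20 (86.9 CPM, the others at most 0.533) and Ngfr in 10_12 (0.0716 CPM, a single count). In bone marrow HFD libraries they were Thy1 in 14_17 (11.4 CPM), Eng in 1_3 (34.3 CPM), Cd44 in 23_28 (2696 CPM), Itgav in 5_11 (70.5 CPM), Cd200 in 5_11 (18.4 CPM) and Ngfr in 5_11 (0.0288 CPM, a single count). All 11 of these are the highest value of their group, spread over 8 of the 9 bone marrow libraries.

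In adipose, Itgav was highest in glutamine 4_6 (192 CPM, the others 97.3 to 118). In adipose HFD libraries Ngfr was highest in 14_17 (0.484 CPM) and Cd81 lowest in 23_28 (422 CPM, the others 671 to 701).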

How the results depend on the processing

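No marker was called for glutamine within either tissue under any alternative run. Over all genes, the bone marrow glutamine effect had 8 calls in the reported fit, but 0 with relative log expression (RLE) factors, upper-quartile factors, the stricter filter or robust fitting, 1 with voom, 202 with no filter, 722 with DESeq2 (which gave an adjusted p for 2 of 7 markers), 3926 in the joint fit and 0 to 19 without 1 library. In adipose DESeq2 called 31. The interaction had 1811 calls, against 0 with RLE, upper quartiles, the block or without adipose HFD 23_28 and glutamine 25_27, 3 with voom, 1061 with DESeq2 and 0 to 2681 without 1 library, with 0 to 1 marker called. Between tissues, 3 markers were called in the reported fit, 6 with RLE and 1 in the glutamine arm. DESeq2 gave a p for only 5 of the 8 markers and called all 5. Over all genes voom called 4463, against 7858. The causes were not tested.

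Tissue differences (log2) that changed sign were Thy1 (-0.97 RLE, -0.59 upper quartile), Eng (-3.59 RLE, -2.55 upper quartile, -0.70 glutamine arm), Cd200 (-0.82 RLE), Cd81 (-3.34 RLE and DESeq2, -2.07 upper quartile, -0.26 glutamine arm), Itgb1 (0.23 voom, 0.30 block) and Itgav (1.72 voom, 1.01 HFD arm, 2.83 block). Without 1 library Eng ran from -0.041 to 2.44 and Itgav from -1.74 to 0.48. In bone marrow, glutamine effects that changed sign were Thy1 (-0.28 RLE, -0.33 upper quartile, -0.51 voom), Cd200 (-0.23 RLE) and Cd44 (0.094 without HFD 23_28 and the unnumbered library). Without 1 library Thy1 ran from -2.14 to 2.7 and Eng from -1.37 to 6.22. In adipose they were Itgb1 (0.036) and Cd81 (0.0088) with upper quartiles and Thy1 (-0.089) in the joint fit, and without 1 library Itgb1 ran from -0.051 to 0.018, Itgav from -0.33 to 0.098 and Cd81 from -0.19 to 0.031. Interactions that changed sign were Alcam (0.0078 RLE, 0.042 DESeq2), Cd200 (1.89 RLE, 0.31 block), Thy1 (0.58 upper quartile, 0.36 voom, 0.26 block), Cd44 (-1.03) and Cd81 (0.10) without the same bone marrow pair. Without 1 library the interaction of Thy1 ran from -2.83 to 2.34, Eng from -5.43 to 2.29, Cd44 from -0.72 to 3.36, Alcam from -0.83 to 0.042 and Cd200 from -4.97 to 3.60.

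Over the 8 replicate labels shared by both tissues, the correlation of deviations from group means ran from -0.0091 to 0.030. Of 8 bone marrow libraries, 2 correlated best with the adipose library of their own label. With bone marrow libraries read so unevenly, this cannot show whether a shared label pairs the libraries. With the replicate block Cd44 lost its tissue call (-1.51, edgeR adjusted p = 0.263) and Cd200 gained one (4.93, adjusted p = 0.0151). In bone marrow the markers ranged from 0 to 54288 counts in a library.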

Other observations

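2 libraries stood out among the partner genes and cell type markers in ways the comparisons do not use. In the unnumbered bone marrow glutamine library, Itga4, the alpha chain of the receptor for VCAM1 and fibronectin, had 1285 CPM, its highest value in any bone marrow library, beside the 1767 CPM of Itgav. Over bone marrow Itga4 averaged 226 ± 410 CPM (SD, n = 9) and over adipose 28.5 ± 19.4 CPM (SD, n = 9). In adipose glutamine library 25_27 the 6 mesothelial markers summed to 2.77 CPM, where the other adipose libraries held 233 to 617 CPM, and Cd44 was at its adipose low of 95.9 CPM.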
